A study of Mus musculus with 4 samples.

Results

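Sp5, Sp6, Sp8 and Sp9 are 4 genes of the Sp family, chosen by name and described here through the accessible chromatin around them in mouse limb buds. Their members in the data are the ATAC-seq peaks that overlap the 100 kb on either side of each gene's transcription start site. These were 72 of the 99427 peaks listed for embryonic stage E10.5 and 31 of the 37548 listed for E11.5, about a day later in gestation. ATAC-seq marks open DNA by inserting sequencing adaptors with the Tn5 transposase. Fore- and hindlimbs together, from embryos of wild-type genotype, were dissociated with trypsin and fixed with formaldehyde before the reaction. There were 2 replicates per stage, and neither the strain nor the number of embryos is given in the labels. The earlier stage is E10.5 by title but E10 by protocol. Each stage has a single peak list for both replicates, so the values below carry no spread between replicates and no test between the stages. Sequencing depth is unknown for both stages, so a peak in the longer list only may reflect depth, stage or both, which cannot be told apart.

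Sp proteins bind GC-rich boxes in DNA through C2H2 zinc fingers. Sp5 to Sp9 are the branch of the family related to the fly gene buttonhead. Sp5 is a known target of Wnt/beta-catenin signalling in the early embryo. Sp6, also called epiprofin, acts in ectoderm, including that of teeth, hair and limb. Sp8 and Sp9 are expressed in the apical ectodermal ridge, the thickened rim of the limb bud that makes the growth factor Fgf8. Sp6 and Sp8 together are needed in limb ectoderm for Fgf8 and for En1, the gene the study concerns. Ectoderm is a minor part of a limb bud, and in these bulk samples fewer cells of a type and less open chromatin per cell cannot be told apart.

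Promoter peaks, those within 1 kb of the outer start site, were present at E10.5 for 8 of 8 limb mesenchyme markers and at E11.5 for 6. For ectoderm markers the numbers were 8 and 5 of 9, and Trp63 had none at its outer start in either list. Endothelial markers had 3 and 1 of 5, blood markers 3 and 4 of 6, muscle precursor markers 4 and 1 of 4, and nerve and glia markers 4 and 2 of 4. Of 6 genes typical of other organs, 1 (Myh6) had a promoter peak in the earlier list and 0 in the later one. Chosen by name, 6 genes are too few to bound a share. Over all protein-coding genes the share was 66.2% at E10.5, in a list of 99427 peaks, and 59.9% at E11.5, in one of 37548. Some markers of several cell types thus lacked a promoter peak at E11.5 that they had at E10.5. The blood marker Hbb-bh1 had one at E11.5 only. The part of cell composition in the values below was not tested.

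The promoter sequences that the results turn on are those of Sp5, Sp8 and Sp9, taken from RefSeq on GRCm38.p6, which has the mm10 coordinates. The table held 5 start sites of these 3 genes. The bases before the start site are shown 5′ to 3′ on the plus strand, the strand of all 4 genes. Capitals mark matches to the motifs searched, on either strand, and the longest run that Sp8 and Sp9 share.
Sp5, chr2:70474673-70474922: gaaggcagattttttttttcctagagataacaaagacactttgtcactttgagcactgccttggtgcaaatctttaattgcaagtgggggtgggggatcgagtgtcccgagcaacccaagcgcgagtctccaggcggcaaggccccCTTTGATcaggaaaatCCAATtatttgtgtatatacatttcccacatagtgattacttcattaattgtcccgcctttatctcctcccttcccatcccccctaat
Sp8, second listed start, chr12:118846983-118847190: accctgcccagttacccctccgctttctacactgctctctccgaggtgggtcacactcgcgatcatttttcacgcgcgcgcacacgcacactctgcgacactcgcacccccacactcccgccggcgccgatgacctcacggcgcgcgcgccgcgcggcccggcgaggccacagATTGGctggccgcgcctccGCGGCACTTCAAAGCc
Sp9, chr2:73271676-73271925: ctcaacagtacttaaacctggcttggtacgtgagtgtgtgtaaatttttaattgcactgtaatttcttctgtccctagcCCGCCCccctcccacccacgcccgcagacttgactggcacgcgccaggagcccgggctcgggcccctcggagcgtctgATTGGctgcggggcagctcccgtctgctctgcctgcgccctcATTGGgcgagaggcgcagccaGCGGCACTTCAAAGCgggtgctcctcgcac

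The Sp5 sequence holds the TCF/LEF motif CTTTGAT, the site through which Wnt/beta-catenin signalling reaches DNA, at bases -104 to -98 before the start site. This motif was present in the 250 bases before 3.21% of 32851 listed start sites. It also holds a CCAAT box (CCAAT, in 33.8% of start sites) at bases -88 to -84. Sp9 has CCAAT on the other strand at bases -93 to -89 and -51 to -47, and a GC box (GGGCGG, in 32.7%) on the other strand at bases -171 to -166. Sp8 has CCAAT on the other strand at bases -77 to -73 of its second start, and GGGCGG at bases -14 to -9, beyond the stretch printed. Its first listed start, not printed, has CCAAT at bases -84 to -80. The TATA box TATAAA (in 12.4%) was found at the first listed Sp8 start only among the 5, and the homeodomain core TAATTA (in 4.84%) at the third Sp8 start only.

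The longest run shared by any pair of these 5 start sites was GCGGCACTTCAAAGC, 15 bases long. It stands at bases -58 to -44 of the second Sp8 start and at bases -30 to -16 of the Sp9 start, on the same strand. Only these 2 of the 32851 listed windows held it. It includes CTTTGAA on the other strand, a variant of the TCF/LEF motif that was in 4.46% of windows. The run and this variant were looked for after the sequences had been seen, and a match is a description, not a binding site.

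Of the 4 genes, 3 had a promoter peak in each list, and they were Sp5, Sp8 and Sp9 both times. Over 21532 protein-coding genes the share was 66.2% in the earlier list and 59.9% in the later one, so 3 of 4 is near the background. What differed among the genes was the shape of the open chromatin at the start. Peaks are given with the authors' signal value, read here as a total over the peak that grows with its width, and with the authors' −log10 p.

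**Figure D1:**
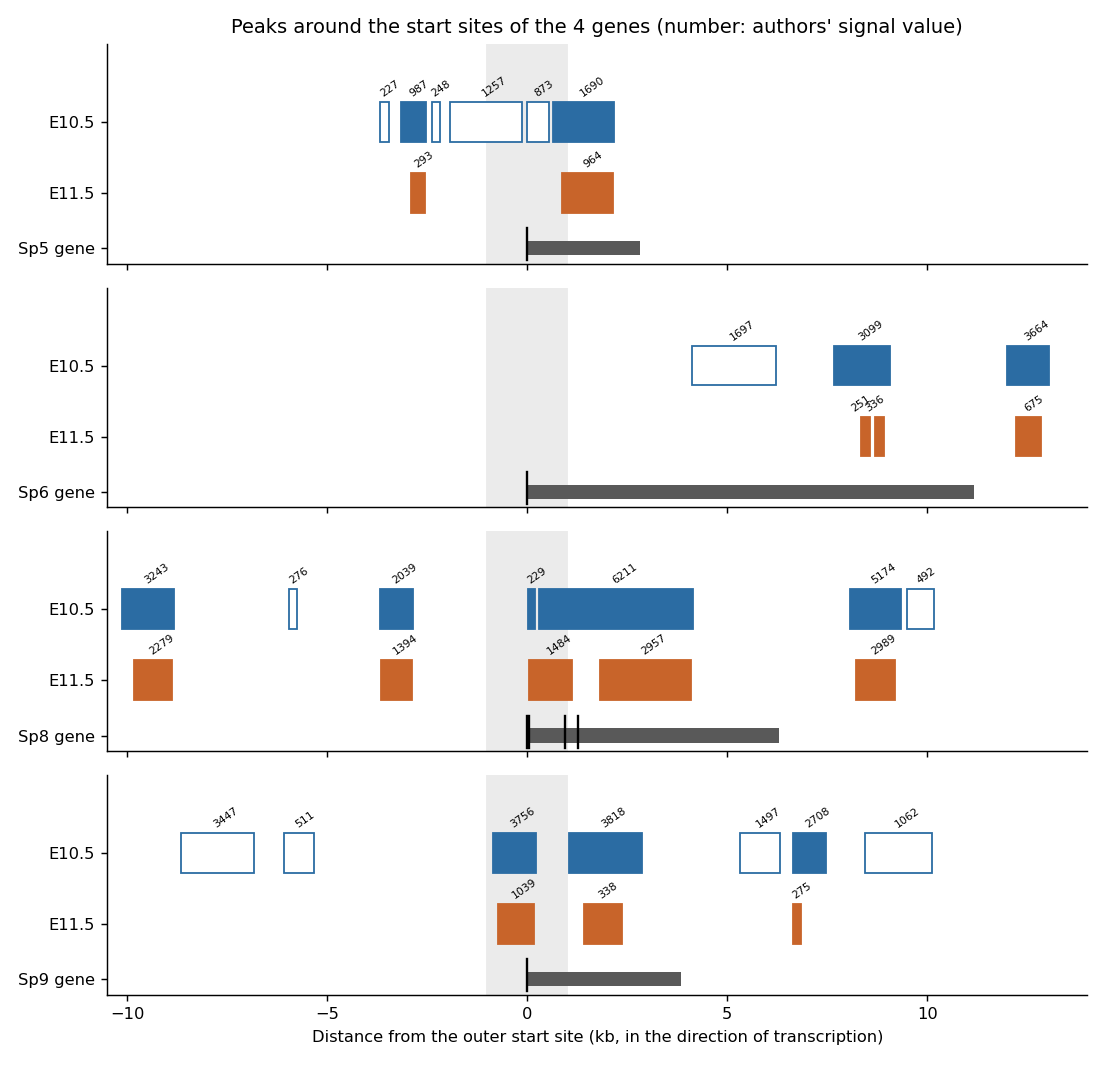
Peaks of the E10.5 list (blue) and the E11.5 list (orange) around the outer start site of each gene, with distance in kb on the x axis and the authors' signal value above each box. Filled boxes overlap a peak of the other list by at least 1 bp, open boxes do not, the grey band spans 1 kb on either side of the start, and black ticks are listed start sites. Sp6 has no peak in the band in either list. The widest E10.5 box drawn is 3854 bp at Sp8, 2100 bp at Sp6, 1823 bp at Sp9 and 1801 bp at Sp5.

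Sp8 (chr12:118846288-118852578) had the promoter peak with the highest total signal of the 4 genes in each list, though not the highest −log10 p, which was that of Sp9 in both. Its E10.5 peak at chr12:118846586-118850439 covered 3854 bp of the gene and ranked 6655 of 99427 with a signal of 6211. Its −log10 p was 5.95. It was wider than 99.3% of the E10.5 peaks, although its signal per bp, 1.61, lay near the middle of the list at percentile 55.3. By −log10 p it ranked 41699, so with the earlier list reduced to 37548 peaks on that value Sp8 would have no E10.5 promoter peak. A small peak at chr12:118846302-118846480, with a signal of 229, covered the first listed start. At E11.5 the same stretch was split into chr12:118846334-118847398, with a signal of 1484 and rank 12668 of 37548, and chr12:118848116-118850384, with a signal of 2957 and rank 7223. The latter lies within 1 kb of the third listed start but counts as distal by the outer start.

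RefSeq lists starts of Sp8 at 118846329, 118847233 and 118847559 in addition to the outer end of the gene. The second of these lay in a peak in both lists, and the first and the third in a peak of the E10.5 list only. The summit of the broad E10.5 peak, its point of highest signal, was at base 118847191, and that of the E11.5 promoter peak was at 118847192. These are 42 and 41 bases before the second start, and 2 and 3 bases beyond the run shared with Sp9.

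The Sp9 promoter peak (gene at chr2:73271926-73275771) spanned the start site in both lists. At E10.5 it lay at chr2:73271075-73272132 and ranked 14430, with signal 3756 and −log10 p 10.61. At E11.5 it lay at chr2:73271187-73272090 and ranked 15490, with signal 1039 and −log10 p 5.91. The start site base itself lay in a peak for 60.0% of coding genes at E10.5 and 53.8% at E11.5. Among the 4 outer start sites it did so only for Sp9. The summits, at 73271848 and 73271879, were 48 and 17 bases upstream of the shared run. A second peak began 1051 bp after the start, just beyond the promoter limit. It had a signal of 3818 at E10.5 (chr2:73272977-73274799) and of 338 at E11.5 (chr2:73273334-73274286), where its signal per bp of 0.35 was at percentile 0.290 of the list.

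Sp5 (chr2:70474923-70477726) had 3 promoter peaks at E10.5 and Sp8 had 2. Of coding genes, 4.99% had 2 or more at E10.5, against 4.10% at E11.5. Those of Sp5 lay at chr2:70472983-70474783 with a signal of 1257, at chr2:70474927-70475469 with 873, and at chr2:70475575-70477079 with 1690. Their −log10 p was 4.04, 4.86 and 7.19 in that order, and the median of the E10.5 list was 5.39. The start site fell in the gap between the first and the second. The TCF/LEF match lies in that gap too, since only the first 111 of the 250 bases shown above were within an E10.5 peak, and 0 were within an E11.5 peak. At E11.5 the single promoter peak, chr2:70475783-70477069 with a signal of 964 and rank 16141, began 860 bp inside the gene and overlapped the third E10.5 peak. It was the member peak closest to the inner side of the 1 kb limit. With a limit of 500 bp Sp5 would have no E11.5 promoter peak.

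Sp6 (chr11:97013569-97024739) had no peak within 1 kb of its outer start in either list, and none within 2 kb. The nearest were at E10.5, inside the gene. The peak at chr11:97017696-97019795, from 4.13 to 6.23 kb after the start, had a signal of 1697 and no E11.5 overlap. In the GENCODE M1 annotation, on another build, a second Sp6 transcript begins 5339 bp after the first, and its mm10 position was not analysed here. The peak at chr11:97021239-97022637 had a signal of 3099 at E10.5, and overlapped 2 small E11.5 peaks with signals of 251 and 336. RefSeq promoter sequence was not used for Sp6.

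The base composition of the 5 listed starts and the peaks over them varied. The ratio of observed to expected CpG over the 300 bases around the start was 1.19 at the second Sp8 start, percentile 99.5 of all listed windows, and 0.83 at Sp9, percentile 81.3. The 250 bases before both starts lay wholly within a peak in both lists. The ratio was 0.40 at Sp5, near the median of 0.38, and 0.16 at the first Sp8 start, of whose 250 bases 27 were in an E10.5 peak and 0 in an E11.5 peak. At the third Sp8 start the ratio was 0.48, percentile 56.5, and yet all 250 bases were in an E10.5 peak and 90 in an E11.5 peak. With 5 windows this is a description.

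Sp8 stood in a window whose peaks, its own promoter peaks included, were mostly in both lists. Of its 11 E10.5 peaks, 8 (72.7%, 95% Wilson interval 43.4 to 90.3%) overlapped an E11.5 peak, against 32.3% of all E10.5 peaks. All 8 of its E11.5 peaks overlapped an E10.5 peak, against 91.6% of that list. Peaks of the same class and signal decile as the 11 would give 4.13 overlaps. The overlaps in the 4 windows changed when the longer list was cut, and the contrast between windows was not tested. With the E10.5 list cut to the number of E11.5 peaks by −log10 p, 5 of 5 Sp8 peaks overlapped. The values were then 9 of 11 for Sp6, 4 of 5 for Sp9 and 3 of 4 for Sp5. Cut by signal, they were 6 of 6 for Sp8, 9 of 14 for Sp6, 5 of 9 for Sp9 and 3 of 4 for Sp5. The Sp8 window holds no start site of another protein-coding gene, so none of its peaks is a neighbour's promoter. These intervals cover counting error only and treat neighbouring peaks as independent.

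The strongest distal peak of Sp8 lay 8.08 to 9.33 kb after the start, between Sp8 and Abcb5, at chr12:118854365-118855619. Its E10.5 signal was 5174, and by its −log10 p of 13.31 it ranked 2540. Its E11.5 counterpart at chr12:118854500-118855471 had a signal of 2989 and rank 7125. Upstream, a peak at chr12:118836161-118837451 had a signal of 3243 at E10.5 and 2279 at E11.5 (chr12:118836449-118837413). The next, at chr12:118842608-118843439, had 2039 at E10.5 and 1394 at E11.5 (chr12:118842629-118843412). The summits of these 3 pairs were 2, 20 and 3 bp apart. Further out, a peak at chr12:118811311-118811857 had signals of 683 and 668. A pair inside Abcb5, a transporter gene, at chr12:118926806-118927429 and chr12:118930591-118931560 had E10.5 signals of 1332 and 1515, and E11.5 signals of 948 and 1118. The 3 E10.5 peaks of this window without an E11.5 overlap were weaker than its other distal peaks, with signals of 276, 492 and 457.

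**Figure D2:**
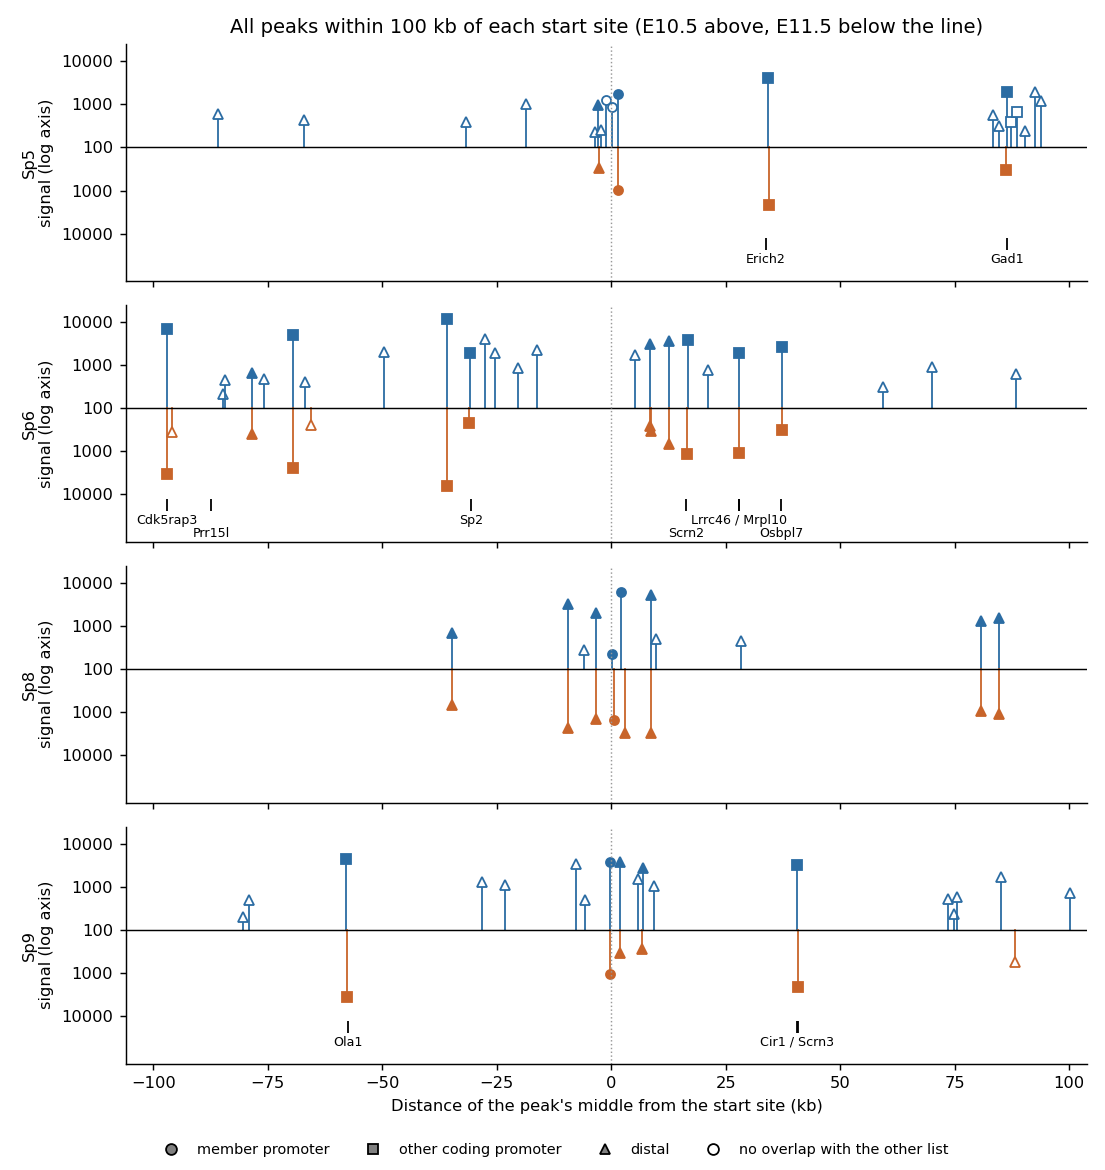
All peaks within 100 kb of each start site, by distance of the peak's middle in kb (x axis) and the authors' signal value (y axis, log scale), with E10.5 peaks above and E11.5 peaks below each line. Filled symbols overlap the other list, open ones do not, and marks at the bottom of each panel are start sites of the neighbouring protein-coding genes named in the text. In the Sp8 panel most symbols are filled on both sides. Open E10.5 symbols number 15 of 19 for Sp5, 14 of 24 for Sp6 and 13 of 18 for Sp9. In the whole E10.5 list 32.3% of peaks overlapped an E11.5 peak.

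In the Sp9 window 5 of 18 E10.5 peaks (27.8%, 12.5 to 50.9%) overlapped an E11.5 peak, near the share of the whole list, and peaks of the same class and decile would give 6.60. The 5 were among the 6 strongest E10.5 peaks of the window. Within 10 kb of the start there were 7 E10.5 peaks, which covered 8972 bp, and 3 E11.5 peaks, which covered 2041 bp. The peak at chr2:73263278-73265086, from -8.65 to -6.84 kb, had a signal of 3447 and no E11.5 overlap, while 70.1% of distal E10.5 peaks of its signal decile had one. The peak at chr2:73278555-73279386 had a signal of 2708, and its E11.5 counterpart of 184 bp at chr2:73278572-73278755 had 275. The start sites of 3 other genes lie in the window. The peaks at those of Ola1 (4417 at E10.5, 3642 at E11.5) and of the head-to-head pair Cir1 and Scrn3 (3198 and 2114) were in both lists, and at E11.5 both exceeded every peak within 10 kb of Sp9. One peak was in the E11.5 list only, chr2:73359898-73360302 in Gpr155, with a signal of 563.

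The Sp6 window was the richest in peaks, and much of that belonged to its neighbours. It held 24 E10.5 and 13 E11.5 peaks, and 7 in each list were at start sites of other genes. Cdk5rap3, Sp2, Scrn2, Lrrc46, Mrpl10 and Osbpl7 each had a promoter peak in both lists, while Prr15l had none. The strongest peak of any of the 4 windows, chr11:96976700-96978778 with a signal of 11629 and rank 1171, lay at a listed start of Sp2, a family member expressed in many tissues. It had an E11.5 counterpart with a signal of 6306 and rank 1455. All 7 E10.5 peaks at other genes' promoters overlapped an E11.5 peak, as did 84.1% of all E10.5 peaks at coding start sites. The 7 E11.5 ones all overlapped in turn, where the share in the list was 98.7%. Of the 17 distal E10.5 peaks 3 overlapped, against 22.4% in the list, and of the 6 distal E11.5 peaks 4 did, against 87.3%.

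Between Sp2 and the Sp6 start lay 4 E10.5 peaks, from -28.9 to -15.6 kb, and 0 E11.5 peaks. This group was picked after its values were seen, and distal E10.5 peaks of the same signal deciles overlapped an E11.5 peak in 18.3 to 70.1% of cases. The strongest, chr11:96984693-96987290, was 2598 bp wide, with signal 4135 and −log10 p 7.21. The other 3, at chr11:96987426-96988817, chr11:96992813-96993416 and chr11:96996939-96997967, had signals of 1927, 851 and 2267. Downstream, the peak at chr11:97025569-97026603, just past the end of Sp6 in the noncoding RNA gene Gm11532, had 3664 at E10.5 and 675 at E11.5 (chr11:97025772-97026395). The window also had an E11.5 peak of signal 390 at chr11:96935044-96935292 in Prr15l, with an E10.5 overlap. Its 2 peaks in the E11.5 list only, chr11:96917553-96917807 and chr11:96947900-96948268, had signals of 350 and 240.

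Sp5 had the fewest E11.5 peaks. Its window held 19 E10.5 and 4 E11.5 peaks, and 4 of the 19 (21.1%, 8.51 to 43.3%) overlapped, where class and decile would give 5.78. All 4 E11.5 peaks had an E10.5 overlap, as did 91.6% of that list. Close to the gene, 6 E10.5 peaks lay between -3.67 and 2.16 kb, and 2 of them had an E11.5 counterpart. These were the gene body peak above and a peak at chr2:70471777-70472396, with a signal of 987 at E10.5 and of 293 at E11.5 (chr2:70472009-70472375). Further upstream, 4 E10.5 peaks with signals of 381 to 1018 had no E11.5 overlap, the strongest at chr2:70456020-70456651. Distal E10.5 peaks of their signal deciles overlapped in 5.84 to 18.3% of cases, so few overlaps would be usual there. The strongest peak of the window, with signals of 4116 and 2139, was at the start of Erich2. The strongest distal peaks, with signals of 1906 and 1209, lay inside Gad1 at chr2:70566712-70568011 and chr2:70568265-70569141 and had no E11.5 overlap. Of distal E10.5 peaks in their signal deciles, 46.8% and 30.1% had one.

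**Figure D3:**
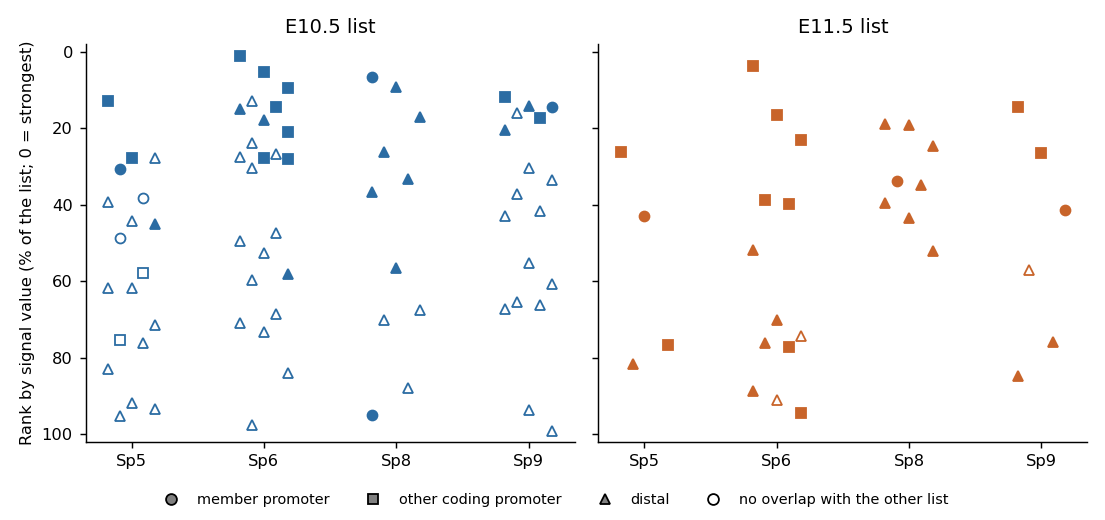
Rank by signal value of every peak in the 4 windows, as a percent of its list with 0 as the strongest (y axis), for the E10.5 list (left) and the E11.5 list (right). Filled symbols overlap the other list. Ranks are read within a list only, and all 8 Sp8 peaks of the E11.5 list stand in its upper 52.2%.

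Of the 72 E10.5 window peaks 19 were at a coding start site, the genes' own or a neighbour's, and of the 31 E11.5 peaks 14 were. The shares in the lists were 16.0% and 37.5%. Each window is centred on a coding start site, so part of any excess is built in. The list shares count every listed start, which would add the Sp8 peak at chr12:118848116-118850384 to the 14. Over the 4 windows, 27 of 72 E10.5 peaks (37.5%, 27.2 to 49.0%) and 28 of 31 E11.5 peaks (90.3%, 75.1 to 96.7%) overlapped the other list. Both shares are near those of the whole lists, 32.3% and 91.6%. Peaks of the same class and decile would give 27.9 and 28.8. With the E10.5 list reduced to the length of the E11.5 list by signal, 33 window peaks were left and 69.7% of them overlapped, and by −log10 p 25 and 84.0%. Among distal peaks alone, 12 of 53 at E10.5 overlapped, where 13.0 would follow from signal, and 14 of 17 at E11.5, where 15.1 would. The 3 genes Sp5, Sp6 and Sp9 fell below that number at E10.5 and Sp8 above it, and the spread among the 4 was not tested. The 24 peaks that paired one to one had summits a median of 10 bp apart, and 19 (79.2%) were within 100 bp, against a median of 21 bp and 83.0% over 29458 pairs of the lists.

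**Figure D4:**
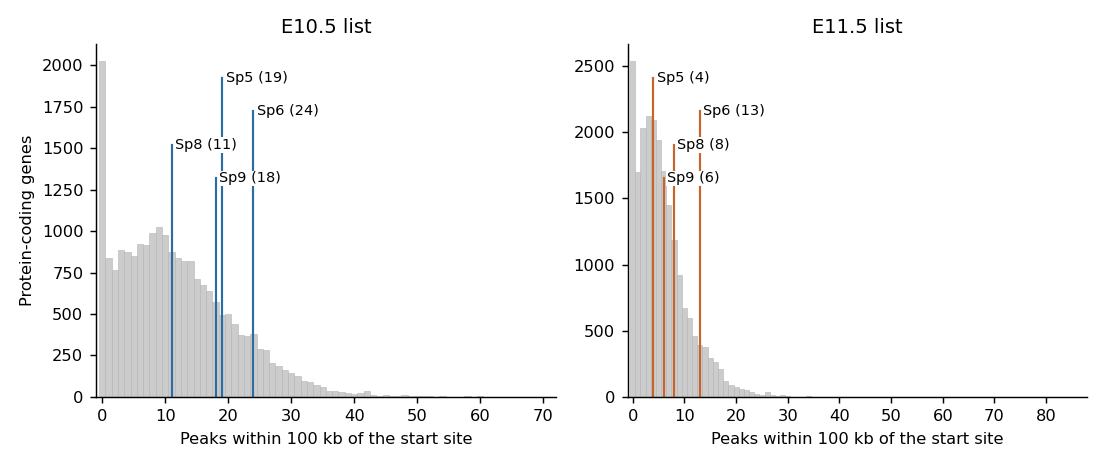
Number of peaks within 100 kb of the start site (x axis) over all 21532 protein-coding genes (bars), with the 4 genes as lines, for each list. Sp6 lies to the right of the other 3 genes in both lists, and Sp5 is the lowest of the 4 at E11.5.

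Set against all protein-coding genes, the 4 windows held peak numbers that many genes reach. The median gene had 10 E10.5 and 5 E11.5 peaks within 100 kb. At least as many E10.5 peaks as Sp6, Sp5, Sp9 and Sp8 were found near 10.9, 21.0, 23.6 and 48.6% of genes. For E11.5 the values were 9.79% for Sp6, 27.6% for Sp8, 42.3% for Sp9 and 61.0% for Sp5. Sp5 thus stood second among the 4 at E10.5 and last at E11.5, and Sp8 last and second. The next peak beyond the edge was 101 kb downstream of Sp6 at E10.5 (signal 1442), and the Sp9 peak at chr2:73371726-73372356 (signal 712) straddled the edge.

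The rest of the family mostly had stronger promoter peaks. Promoter signals, earlier list first, were 15915 and 11554 for Sp1, 12798 and 10789 for Sp3, and 18126 and 17913 for Sp4. The outer start of Sp2 had 1874 and 223, besides the stronger peak at another start given above. Sp7, the bone-forming factor osterix, had promoter peaks of at most 1137 at E10.5 and none at E11.5. Of the 17 Klf genes, relatives with similar zinc fingers, 15 had a promoter peak at E10.5 and 14 at E11.5. Over all protein-coding genes 66.2% and 59.9% had one. Klf14 had one at E10.5 only (signal 545), and Klf8 and Klf17 had none.

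Among genes of the pathways that act in limb ectoderm and ridge, all 12 ligands had a promoter peak in the earlier list and 7 in the later one. The shares over all protein-coding genes were 66.2% and 59.9%. The 5 ligand genes without an E11.5 promoter peak were Wnt3, Wnt7a, Fgf4, Fgf8 and Fgf17. Among the 7 with one were other ligands known from the ridge, such as Fgf9 (signal 2385), Bmp2 (5468) and Bmp4 (1099). All 6 receptor genes had a promoter peak in both lists. Of 12 transcription and signalling factors, 11 had one at E10.5 and 10 at E11.5. Axin2, a feedback inhibitor of Wnt signalling, was the exception at E11.5, and Trp63 had none in either. Sp5, Sp8 and Sp9 had a promoter peak in the E11.5 list, as did 7 of the 12 ligand genes, while Fgf8 did not. For Sp5 this was the peak that began 860 bp inside the gene, and a 500 bp limit would leave none. A difference between these genes was not tested.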

How the data were processed

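ATAC-seq was analysed in 4 limb samples, 2 at E10.5 and 2 at E11.5, through 1 deposited narrowPeak list per stage on mm10. The submitters' processing notes name cutadapt, Bowtie2, SAMtools, deepTools and Genrich, with no role or version, and the way replicates were combined is not given in the sources used here. The deposited signal value has a minimum of 200 in both lists. It is read as a total over the peak, because the deposited score follows signal divided by width up to a cap. The −log10 p was deposited by the authors. The score and the deposited q column, -1 throughout, were not used.

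The analysis used Python 3.11.15 with pandas 2.3.3, and code was tested on simulated intervals. Gene ends came from RefSeq (GRCm38.p6). Strand came from its promoter table for 17491 protein-coding genes and from GENCODE M1 by symbol for 4041, including Sp6. Of 14742 genes in both, 39 differed. The start site is the outer end by strand. A peak counts as in the other list when it overlaps by at least 1 bp. Intervals are 95% Wilson intervals. Distal peaks lie over 1 kb from the outer start of the gene described and from every listed start of other protein-coding genes. Expected overlaps sum, over peaks, the share of the list's peaks of the same class and signal decile that overlap. Coordinates are 1-based.

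The rule named all promoter peaks, the 3 strongest distal peaks per gene and list, and peaks in the E11.5 list only. Members and lists were chosen with earlier results of these data known. Other window sizes, promoter limits, thresholds and overlap rules were tried. An mm10 genome was not used, so distal sequences were not analysed here. A neighbouring gene of Sp6 is not reported here.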

Additional observations from a re-analysis of the deposited data

How the results depend on the processing

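No paired analysis was possible because a stage's 2 replicates share 1 peak list. Leaving out a replicate was not run, as the lists are joint. Unknown depth limits every count. Promoter calls held for 3 genes at E10.5 and 3 at E11.5 under most settings. The exceptions were a 500 bp limit, which dropped Sp5 at E11.5 (2 genes), and cutting the E10.5 list to the number of E11.5 peaks by −log10 p, which dropped Sp8 at E10.5 (2 genes). Counting every listed start could not change the Sp6 call, since only 1 start was known for that gene here.

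The number of peaks follows window size by construction. A 50 kb window held 42 E10.5 peaks, and a 250 kb window 148 E10.5 and 59 E11.5 peaks. In the 50 kb window 100% of E11.5 peaks were seen to overlap. Keeping peaks whose nearest start was the gene's own left 29 and 11, with 100% of E11.5 peaks overlapping, and 1 and 0 peaks for Sp6. Distal peaks alone, by every listed start, gave 22.6% of E10.5 peaks overlapping and 16 E11.5 peaks. A −log10 p of at least 5 left 41 and 19 peaks. At matched number by signal there were 33 E10.5 peaks, 69.7% overlapping. By −log10 p there were 25, with 84.0% of these and 71.0% of E11.5 peaks overlapping. Stricter overlap put the E11.5 share at 67.7% (50% reciprocal), 67.7% (summits within 100 bp) and 74.2% (200 bp around summits). Of 46 values of the main results, 27 kept to their interval or to within 1.5 times, and 19 moved.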

Other observations

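The Sp5 window reaches Gad1, which encodes an enzyme that makes the neurotransmitter GABA. Between 83.3 and 94.2 kb after the Sp5 start lay 8 E10.5 peaks, with signals of 239 to 1916, and 1 of them overlapped an E11.5 peak, the window's single peak there (signal 330). It spanned the outer Gad1 start. These peaks make up 8 of the 19 E10.5 peaks counted for Sp5. In the Sp9 window, 5 E10.5 peaks from 73.3 kb on, in Gpr155, had signals of 236 to 1709, and 0 overlapped an E11.5 peak. In the whole E10.5 list 22.4% of distal peaks and 84.1% of peaks at coding start sites overlapped, and distal peaks of the signal deciles in Gpr155 did so in 3.28 to 30.1% of cases, so few overlaps would be usual there. Both groups were chosen after their values were seen, and the gene that any of these peaks acts on was not analysed here.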
